A study of Mus musculus with 12 samples.

Results

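The transferrin receptor gene Tfrc was examined with 6 other genes of cellular iron handling (Fth1, Ftl1, Slc11a2, Slc40a1, Aco1 and Ireb2) in Beko cells, a mouse pre-T cell line. These 7 of the 23366 gene symbols in the deposited tables were taken by symbol, and all 7 had a row in each of the 3 tables. They were chosen by the Tfrc values, which were higher in the treated libraries of all 3 experiments. The Tfrc changes are therefore described here without a test, and tests are given for the other genes. Total RNA depleted of ribosomal RNA had been sequenced in 12 libraries, in 6 groups of 2. DAPT, a γ-secretase inhibitor that blocks Notch signalling, was given at 10 µg/ml for 24 h and compared with DMSO for 24 h. Apicidin, a histone deacetylase inhibitor, was given at 0.01 µg/ml for 24 h and compared with its own DMSO libraries, also at 24 h. A plasmid hairpin against Hdac3, labelled Sh1, was compared with a scrambled hairpin (SCR), both labelled 96 h after puromycin. The hairpin group is called shHdac3 below. All groups were grown in IMDM with serum, peptone and insulin. Each condition was thus tested in 1 cell line, with 1 dose per compound and 1 hairpin against Hdac3. Whether the 2 libraries of a group are separate cultures is not labelled. The p-values therefore rest on how far libraries of a group lay apart, which could be a technical spread. In limma that spread was taken from the gene itself and from genes of similar level.

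Cells take up iron mainly as iron-loaded transferrin, which binds the transferrin receptor at the surface and is taken in by endocytosis. The metal transporter encoded by Slc11a2 (DMT1) then moves the iron out of the endosome, ferritin made of Fth1 (heavy) and Ftl1 (light) subunits stores it, and ferroportin, encoded by Slc40a1, exports it. The iron regulatory proteins, encoded by Aco1 (IRP1) and Ireb2 (IRP2), bind stem-loops called iron-responsive elements when iron is scarce. Binding in the 3′ UTR of the Tfrc mRNA protects that mRNA from decay, whereas binding in the 5′ UTR of the ferritin and ferroportin mRNAs blocks their translation. Ferritin protein can thus change without a change in its RNA. Dividing lymphocytes are known for a high transferrin receptor level.

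The stem-loop motifs are shown because they mark where a sequence of this form lies in the mRNAs of the group, and on which side of the coding region. The motif was a bulged C, any 5 bases, the loop CAGTGN, and 5 bases that pair with those before the loop, G-T pairs allowed. It was searched on the sense strand of 1 RefSeq-matched GENCODE transcript per gene. The capitals mark the bulged C and the loop, positions are from the GRCm38 build (the submitters used mm9), and sequences read 5′ to 3′ on the mRNA strand.
Tfrc 3′ UTR, chr16:32631219-32631247, plus strand: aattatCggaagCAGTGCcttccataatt
Tfrc 3′ UTR, chr16:32631598-32631626, plus strand: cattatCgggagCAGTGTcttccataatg
Tfrc 3′ UTR, chr16:32631663-32631691, plus strand: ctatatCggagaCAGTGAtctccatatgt
Tfrc 3′ UTR, chr16:32631710-32631738, plus strand: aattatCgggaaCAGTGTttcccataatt
Fth1 5′ UTR, chr19:9982732-9982760, plus strand: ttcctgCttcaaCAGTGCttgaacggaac
Ftl1 5′ UTR, chr7:45459779-45459807, minus strand: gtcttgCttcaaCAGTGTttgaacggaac
Slc40a1 5′ UTR, chr1:45925465-45925493, minus strand: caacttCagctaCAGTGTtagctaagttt

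Tfrc thus held 4 matches, all in its 3′ UTR, and the ferritin and ferroportin transcripts held 1 each, in the 5′ UTR. Among 20591 genes searched, 1.24% held a match anywhere in the transcript, 0.0874% in the 5′ UTR and 0.52% in the 3′ UTR. The searched transcripts of Slc11a2, Aco1 and Ireb2 held no match of these letters. Other transcripts, such as a Slc11a2 one of 3025 bases (4415 in the one searched), were not searched. Stems with an unpaired base were not counted, so the lack of a match does not show that a gene has no such element. Among the other iron genes described further on, Alas2 held 1 match in the 5′ UTR and Bola3 held 1 in the 3′ UTR. A match is a description of sequence, and binding was not measured here.

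Between 21766984 and 42815304 reads per library were assigned to genes. Values below are normalized reads, that is reads divided by 1 size factor per library, and each experiment was normalized on its own. Hdac3 was at 774 and 819 in the shHdac3 libraries, against 2012 and 1930 in scrambled libraries, a log2 fold change of -1.31 ± 0.05 (SE; limma adjusted p = 7.6e-25). The 8 T cell markers summed to between 2831 and 3732 RPM (reads per 1000000 reads assigned to genes) over the 12 libraries, and all 8 had reads. Rag1 gave the most of these reads, at 831 to 1567 RPM, followed by Tcf7 at 454 to 897 and Lck at 418 to 622. Of 9 erythroid markers, 5 (the globin genes Hba-a1, Hba-a2, Hbb-b1 and Hbb-b2 among them) had no read in any library. The erythroid list summed to 7.71 to 8.22 RPM with DAPT against 5.77 to 6.30 with DMSO, 6.51 to 7.03 with apicidin against 7.28 to 7.44 with DMSO, and 5.39 to 5.78 in the shHdac3 libraries against 6.31 to 7.01 in the scrambled ones. Of 8 macrophage markers, C1qa had no read, and of 5 B cell markers, 2 had none. The macrophage list summed to between 8.84 and 37.2 RPM, mostly from Itgam. The macrophage sum was 14.7 to 16.7 with DAPT against 8.84 to 9.28 with DMSO, 34.1 to 37.2 with apicidin against 23.2 to 24.7 with DMSO, and 16.7 to 17.3 in the shHdac3 libraries against 15.3 to 16.5 in the scrambled ones. The B cell sum was 2.87 to 3.36 with DAPT against 3.03 to 3.72 with DMSO, 3.91 to 4.87 with apicidin against 3.24 to 4.78 with DMSO, and 1.05 to 1.18 in the shHdac3 libraries against 1.78 to 1.86 in the scrambled ones. The T cell sum was lower in all treated groups, at 2932 to 3006 with DAPT against 3513 to 3634 with DMSO, 2941 to 3020 with apicidin against 3566 to 3675 with DMSO, and 2831 to 2835 in the shHdac3 libraries against 3722 to 3732 in the scrambled ones. The part of these sums in the results below was not tested. In bulk libraries such as these, a change in the number of cells of a kind and a change in RNA per cell cannot be told apart.

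Tfrc, the receptor through which cells take up transferrin-bound iron, stood at 21241 and 21137 normalized reads in the DAPT libraries, against 12816 and 13954 in their DMSO libraries. The group means were 21189 ± 73.2 with DAPT and 13385 ± 804 with DMSO (SD, n = 2 each), a 1.58-fold higher level with DAPT and a log2 fold change of 0.66 ± 0.04 (SE). Both DAPT libraries lay above both controls, and the control libraries lay further apart than the DAPT libraries. Of all genes tested, 4.14% were higher with DAPT by as much or more.

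In the apicidin libraries Tfrc was at 5840 and 5916, against 3671 and 3495 in their DMSO libraries. The means were 5878 ± 53.6 with apicidin and 3583 ± 124 with DMSO (SD, n = 2 each), which is 1.64-fold higher, or 0.71 ± 0.04 on the log2 scale (SE). Again the groups did not overlap, and 2.59% of genes tested were higher with apicidin by as much.

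In the shHdac3 libraries Tfrc was at 8800 and 8596, against 4594 and 4612 in the scrambled libraries. The means were 8698 ± 144 with shHdac3 and 4603 ± 12.5 with the scrambled hairpin (SD, n = 2 each), which is 1.89-fold higher, or 0.92 ± 0.04 on the log2 scale (SE). This was the highest of the 3 Tfrc changes, which were not tested against each other, and 0.513% of genes tested were higher with shHdac3 by as much. With any 1 library left out, the log2 change of Tfrc stayed between 0.60 and 0.73 for DAPT, 0.68 and 0.75 for apicidin, and 0.90 and 0.93 for shHdac3. The sum of T cell markers moved the other way in each experiment: it was 2932 to 3006 RPM with DAPT against 3513 to 3634 with DMSO, 2941 to 3020 with apicidin against 3566 to 3675 with DMSO, and 2831 to 2835 in the shHdac3 libraries against 3722 to 3732 in the scrambled ones. Rag1 gave the most reads in that sum, and single markers were not compared between groups here. The part of the sum in the Tfrc levels was not tested. Of 12204 genes tested in all 3 experiments, 287 (2.35%) passed the test as higher in each, and since Tfrc chose these genes, nothing is read from that share.

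**Figure D1:**
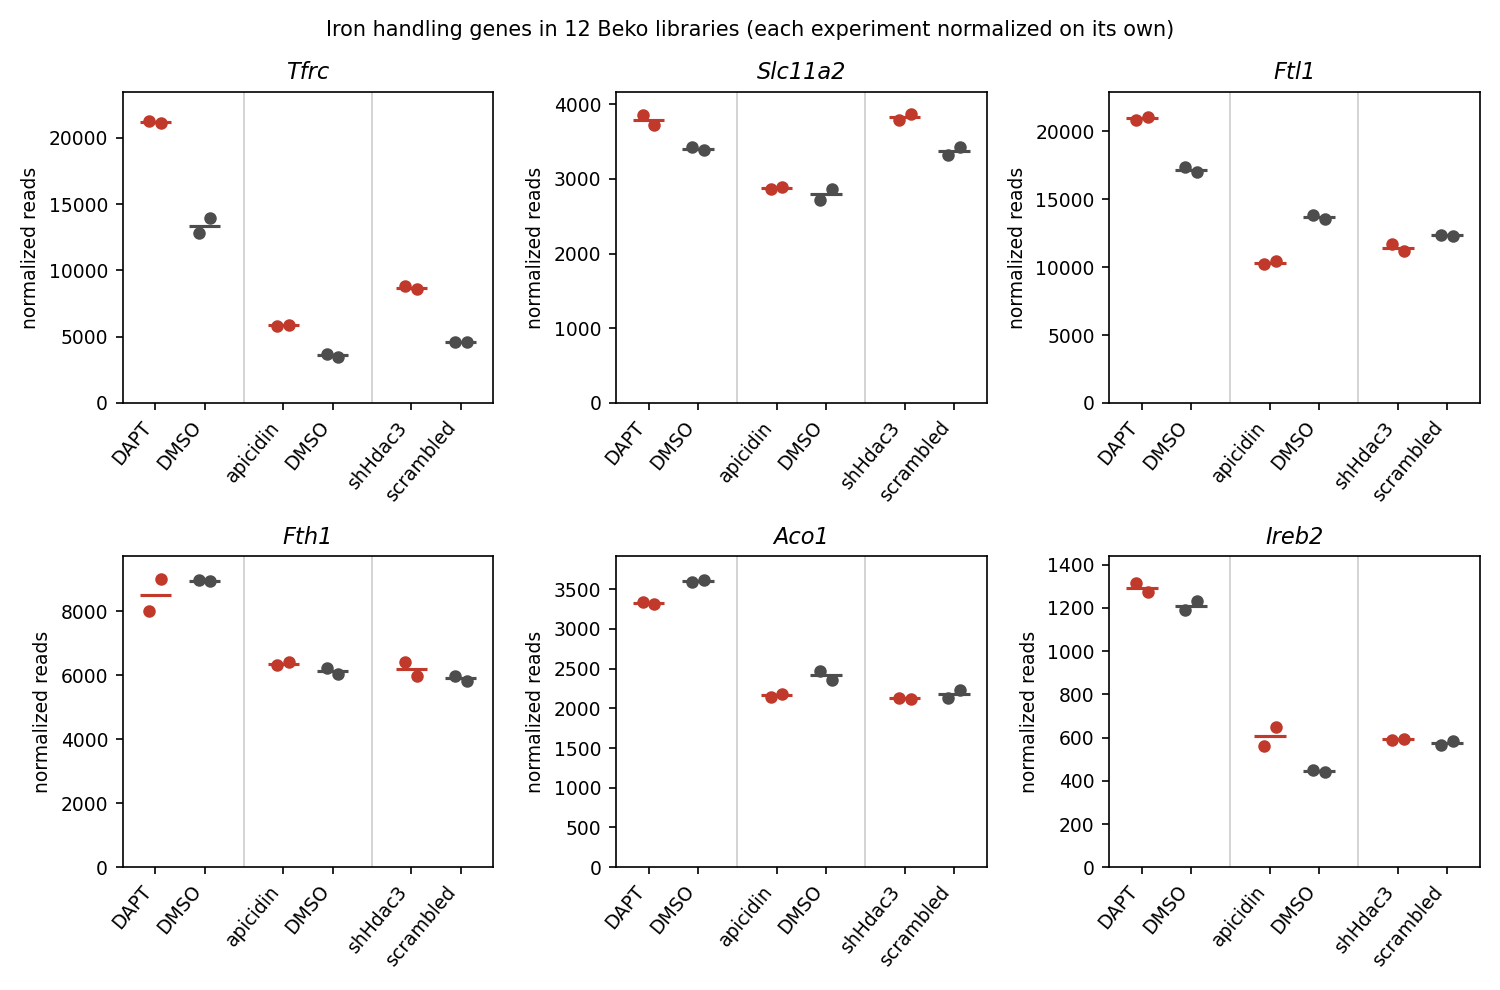
Normalized reads (vertical axes from 0) of Tfrc and the 5 other iron handling genes with reads, 1 point per library and a bar at each group mean, treated groups left of their controls. Tfrc lay above its controls in all 3 experiments (1.58-, 1.64- and 1.89-fold), Ftl1 lay above them with DAPT and below them with apicidin, and Ireb2 stood clear of its controls with apicidin.

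The other 5 genes with reads did not move as a group. At an adjusted p under 0.05 (limma on log2(value + 1), adjusted over all genes tested), 2 of the 5 rose and 1 fell with DAPT, where 43.2% of all 12840 genes tested were called in either direction. With apicidin 1 rose and 2 fell, where 38.1% of 12463 genes were called. With shHdac3 1 of the 5 rose and 0 fell by limma, where 41.9% of 12482 genes were called. At an unadjusted p under 0.05 in limma, and by edgeR, 1 of the 5 (Ftl1) was lower. These counts of 3, 3 and 1 of 5 are too few to set apart from those shares. The treated libraries lay on 1 side of both controls for 4 of the 5 genes with DAPT, all 5 with apicidin and 3 with shHdac3. Over all genes tested this held for 69.9%, 69% and 69.2%.

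Slc11a2, the transporter that carries iron out of the endosome after Tfrc has brought it in, rose with DAPT and with shHdac3, by much less than Tfrc. It was at 3858 and 3720 normalized reads with DAPT, against 3426 and 3381 with DMSO, a log2 fold change of 0.15 ± 0.04 (SE; limma adjusted p = 0.0032). Both DAPT libraries lay above both controls, but without DAPT replicate 1 the adjusted p was 0.10 in the same limma test. With shHdac3 it was at 3791 and 3870, against 3325 and 3428 in scrambled libraries, a log2 fold change of 0.18 ± 0.05 (SE; limma adjusted p = 8.8e-04). This call held in every alternative run and with each library left out. With apicidin it was at 2870 and 2889, against 2721 and 2861 with DMSO, and the difference did not pass (log2 0.05 ± 0.04 SE; limma adjusted p = 0.44), although the 2 groups did not overlap.

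Ftl1, the light subunit of the ferritin shell, moved in opposite directions with the 2 compounds. It rose with DAPT, to 20818 and 21041 normalized reads, against 17358 and 16964 with DMSO, a log2 fold change of 0.29 ± 0.04 (SE; limma adjusted p = 8.0e-07). It fell with apicidin, to 10190 and 10470, against 13863 and 13526 with DMSO, a log2 fold change of -0.41 ± 0.04 (SE; limma adjusted p = 1.2e-06), or 1.33-fold lower. Neither pair of groups overlapped, and both calls held in every alternative run and with each library left out. With shHdac3 Ftl1 was at 11708 and 11145, against 12351 and 12321 in scrambled libraries, a log2 fold change of -0.11 ± 0.05 (SE). Both shHdac3 libraries lay below both controls, and the limma adjusted p of 0.0501 missed the threshold. It passed with edgeR on the recovered reads (adjusted p = 0.038), and the deposited DESeq2 result of the authors gave an adjusted p of 0.083, so this change lies at the limit of these libraries. In GENCODE, 36.7% of the exonic bases of Ftl1 lie antisense to Gm10252 and 11.3% overlap Gm22133 on the same strand. The annotation also lists 3 light-chain pseudogenes (Ftl1-ps1, Ftl1-ps2, Ftl2-ps) and 2 heavy-chain pseudogenes (Fth-ps2, Fth-ps3). How reads shared by such copies were counted is not given in the sources used here, so the ferritin values are uncertain to that extent.

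Fth1, the heavy ferritin subunit with the ferroxidase activity, did not pass in any experiment. It was at 8017 and 9002 with DAPT, against 8957 and 8925 with DMSO, where the 2 DAPT libraries lay on either side of the controls (log2 -0.07 ± 0.04 SE; limma adjusted p = 0.19). DAPT replicate 1 decided the sign: without it the log2 change was 0.01, and without DAPT replicate 2 it was -0.16 with a limma adjusted p of 0.024. With apicidin Fth1 was at 6314 and 6407, against 6218 and 6019 with DMSO (log2 0.06 ± 0.04 SE; limma adjusted p = 0.30). With shHdac3 it was at 6411 and 5973, against 5980 and 5809 in scrambled libraries, and these groups overlapped (log2 0.07 ± 0.05 SE; limma adjusted p = 0.22).

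Slc40a1, the iron exporter ferroportin, had no read in any of the 12 libraries, out of 366871087 reads in all. A count of 0 allows a level of up to 3 reads per library, or 0.0701 to 0.138 RPM, counting error only. It shared this with 5616 of the 23366 symbols (24%), and no fold change is given.

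**Figure D2:**
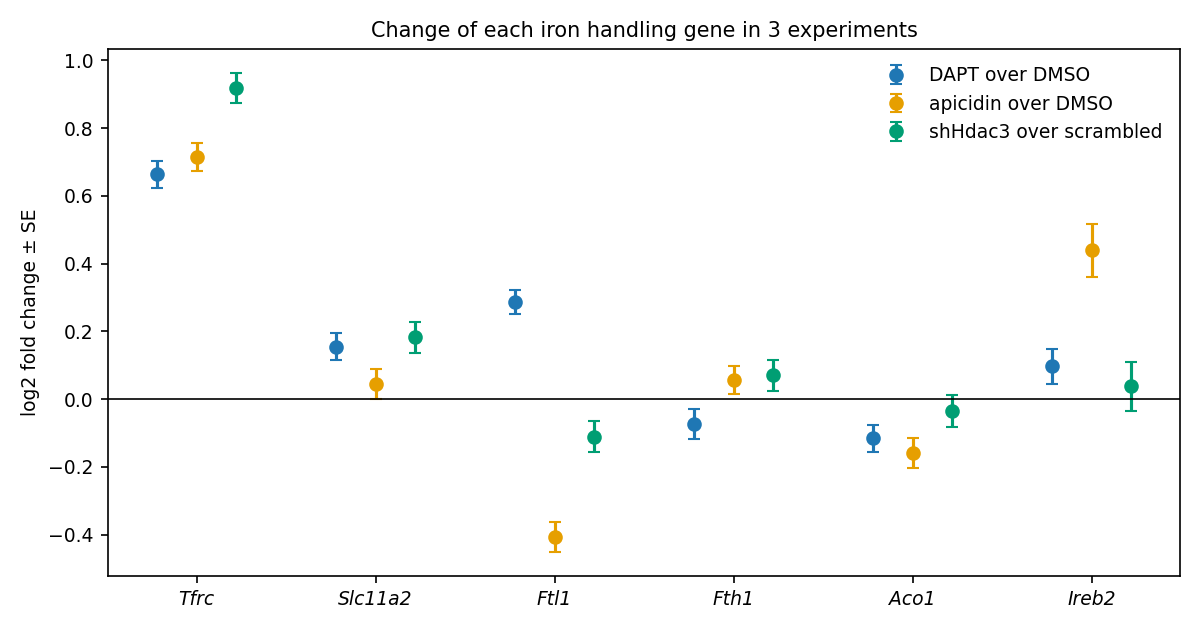
Log2 fold change (vertical axis, with SE bars) of 6 iron handling genes for DAPT over DMSO, apicidin over DMSO and shHdac3 over scrambled, 2 libraries a group. The Tfrc changes, which chose the genes, lie between 0.66 and 0.92, while the other genes lie between -0.41 (Ftl1, apicidin) and 0.44 (Ireb2, apicidin).

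The 2 genes for iron regulatory proteins changed with apicidin in opposite directions. Ireb2, whose product IRP2 is removed by ubiquitin-dependent degradation when iron is plentiful, rose with apicidin. It was at 561 and 650 normalized reads with apicidin, against 451 and 440 with DMSO, a log2 fold change of 0.44 ± 0.08 (SE; limma adjusted p = 2.8e-04). Both apicidin libraries lay above both controls, the apicidin libraries lay further apart than the controls, and the call held with each library left out. With DAPT Ireb2 was at 1314 and 1272, against 1188 and 1231 with DMSO (log2 0.10 ± 0.05 SE; limma adjusted p = 0.15). With shHdac3 it was at 589 and 594, against 567 and 585 in scrambled libraries (log2 0.04 ± 0.07 SE; limma adjusted p = 0.71). Neither of these differences passed, though the groups did not overlap in either.

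Aco1, whose product is a cytosolic aconitase when it holds an iron-sulfur cluster and IRP1 when it does not, was lower with both compounds by a small margin. It was at 3333 and 3318 with DAPT, against 3589 and 3616 with DMSO, a log2 fold change of -0.12 ± 0.04 (SE; limma adjusted p = 0.022). With apicidin it was at 2147 and 2178, against 2472 and 2354 with DMSO, a log2 fold change of -0.16 ± 0.04 (SE; limma adjusted p = 0.0096). The groups did not overlap in either experiment, but both calls were fragile. The DAPT call was lost with upper-quartile factors and without either DAPT library (limma adjusted p between 0.11 and 0.16), and the authors' deposited table gave 0.093. The apicidin call was lost without apicidin replicate 1 (limma adjusted p = 0.073) and without apicidin DMSO replicate 1 (limma adjusted p = 0.061), and the authors' deposited table gave 0.095. With shHdac3 Aco1 was at 2131 and 2118, against 2128 and 2225 in scrambled libraries, and the groups overlapped (log2 -0.03 ± 0.05 SE; limma adjusted p = 0.60).

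Whether a gene responded differently in 2 experiments was tested as the difference of their log2 changes in 1 limma fit over all 12 libraries, for the 5 genes other than Tfrc. No 2 experiments share a library. Ftl1 differed in all 3 pairs. Its change was 0.68 ± 0.06 higher for DAPT than for apicidin (SE; limma adjusted p = 1.7e-09), where 34.8% of 13042 genes passed. It was 0.39 ± 0.06 higher for DAPT than for shHdac3 (SE; limma adjusted p = 3.6e-06), where 43.8% of genes passed. It was lower for apicidin than for shHdac3, by -0.29 ± 0.06 (SE; limma adjusted p = 2.6e-04), where 33.4% passed. The Ireb2 change was lower for DAPT than for apicidin, by -0.35 ± 0.09 (SE; limma adjusted p = 0.0047). Without apicidin replicate 2 that difference was -0.25 with a limma adjusted p of 0.051. The Ireb2 change was 0.41 ± 0.09 higher for apicidin than for shHdac3 (SE; limma adjusted p = 0.0017). The remaining 10 differences, which include all those of Slc11a2, Fth1 and Aco1, did not pass. For Slc11a2 the difference of apicidin minus shHdac3 was -0.13 ± 0.06 (SE; limma adjusted p = 0.077). Its changes with apicidin and shHdac3 are therefore not shown to differ.

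Levels of different genes were compared per kilobase of the longest RefSeq-matched GENCODE transcript. Ftl1 was the highest in every library, at 10526 to 21737 normalized reads per kilobase, followed by Fth1 at 3889 to 6026 and Tfrc at 715 to 4344. Slc11a2 (616 to 877) and Aco1 (553 to 944) came next and changed places between libraries, and Ireb2 was at 76.2 to 228. In the apicidin DMSO libraries Slc11a2 averaged 632 ± 22.5 and Aco1 630 ± 21.8 per kilobase (SD, n = 2 each), which do not differ beyond their spread. In the DAPT libraries Tfrc, at 4333 ± 15.0 per kilobase, approached Fth1, at 5696 ± 466 per kilobase (SD, n = 2 each). In the apicidin DMSO libraries Tfrc, at 733 ± 25.4 per kilobase, lay close to Slc11a2. With the shortest RefSeq-matched transcript of each gene as the length, Tfrc and Slc11a2 changed places in some libraries, so their order there depends on the isoform.

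**Figure D3:**
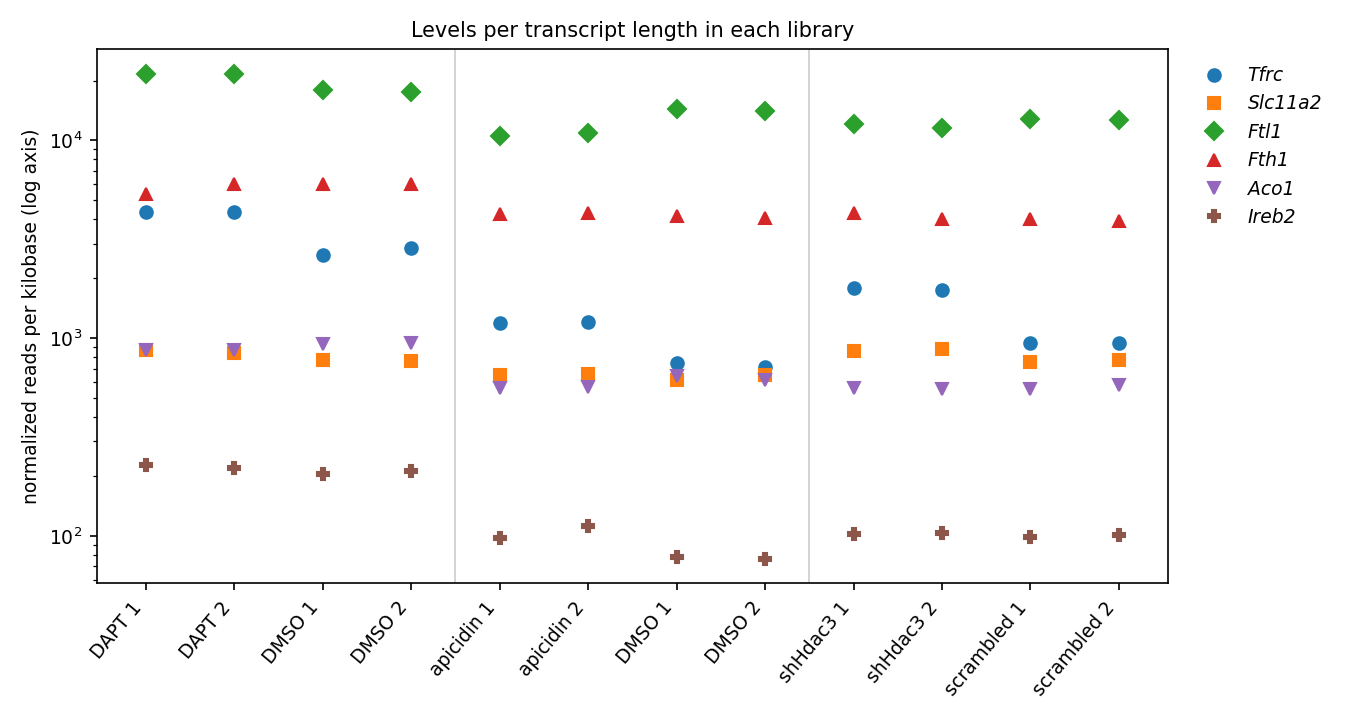
Normalized reads per kilobase of transcript (log axis) of 6 iron handling genes in each of the 12 libraries, treated libraries left of their controls. Ftl1 (10526 to 21737) and Fth1 (3889 to 6026) lie on top throughout, and Tfrc spans 715 to 4344. Each experiment was normalized on its own, so levels compare within an experiment.

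Tfrc also varied among the control groups, by as much as it varied with treatment. On 1 scale set over all 12 libraries, Tfrc averaged 9940 normalized reads in the DMSO libraries of the DAPT experiment, 4178 in those of the apicidin experiment and 5321 in the scrambled libraries. The first of these is 2.38-fold the second and 1.87-fold the third, and the scrambled mean is 1.27-fold that of the apicidin DMSO libraries. Of 13042 genes, 2.77% lay as far apart between the 2 DMSO groups, for which the labels give the same agent and time. Ireb2 was 1.73-fold higher in the DMSO libraries of the DAPT experiment than in those of the apicidin experiment, and 9.68% of genes lay as far apart. Fth1, Ftl1, Slc11a2 and Aco1 differed between these DMSO groups by 1.05- to 1.29-fold. The experiments were not tested against each other at this level, since experiment and control group cannot be told apart. Over all 12 libraries Tfrc spanned 134 to 534 RPM, a 3.98-fold range, while the other 5 genes with reads spanned between 1.22-fold (Aco1) and 1.96-fold (Ireb2).

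The other genes of iron metabolism were taken from 6 lists compiled by hand: uptake and trafficking, storage and export, control of the regulatory proteins and mRNAs with the stem-loop, mitochondrial iron-sulfur cluster assembly, cytosolic iron-sulfur cluster assembly, and heme. Of 95 genes listed, 92 had a row. With DAPT 7 of 78 tested rose (8.97%, against 20.1% of all genes tested) and 30 fell (38.5%, against 23.1%), with a median log2 change of -0.09, against 0.00 over all genes tested. With apicidin 10 of 76 rose (13.2%, against 18.2%) and 25 fell (32.9%, against 19.9%), with a median of -0.08. Leaving out 1 library at a time gave 6 to 12 higher and 16 to 21 lower with apicidin, with 6 higher and 16 lower without apicidin replicate 1 and 6 higher without apicidin replicate 2. With shHdac3 15 of 79 rose (19%, against 22.5%) and 12 fell (15.2%, against 19.4%), with a median of -0.02. With upper-quartile factors the balance with shHdac3 turned, to 7 higher and 16 lower, and over all genes 43.5% of calls were then higher, against 53.8%. With DAPT these factors gave 11 higher and 22 lower. With both compounds more of these genes fell than rose, and the lists were not tested against other genes or between experiments. By the authors' deposited adjusted p-values, 4 rose and 19 fell with DAPT, 6 rose and 13 fell with apicidin, and 6 rose and 7 fell with shHdac3.

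Of the 75 such genes tested in all 3 experiments, Fbxl5 alone fell in all 3 and Rc3h1 alone rose in all 3, where 2.25% of all genes tested fell and 2.35% rose in all 3. Fbxl5 encodes the iron-sensing subunit of the ubiquitin ligase that targets the iron regulatory proteins. It was at 3128 and 3132 normalized reads with DAPT, against 4753 and 4788 with DMSO (log2 -0.61 ± 0.04 SE; limma adjusted p = 1.6e-11). It was at 2107 and 2293 with apicidin, against 2841 and 2831 with DMSO (log2 -0.37 ± 0.05 SE; limma adjusted p = 8.9e-06). It was at 2185 and 2215 with shHdac3, against 3486 and 3538 in scrambled libraries (log2 -0.67 ± 0.05 SE; limma adjusted p = 5.4e-17). Fbxl5 was thus lower in all 3 experiments, with no overlap between groups, and its 3 calls held in every alternative run. Tfrc was chosen for being higher in all 3, and a link of Fbxl5 with Tfrc was not tested. Skp1a, the gene of a partner subunit in that ligase, rose with apicidin to 18904 and 20102, against 12568 and 11518 with DMSO (log2 0.70 ± 0.05 SE; limma adjusted p = 1.3e-08), and did not pass with DAPT or shHdac3 (limma adjusted p = 0.057 and 0.36). The genes of other subunits of that ligase, Cul1 and Rbx1, named after their values were seen, fell with apicidin (log2 -0.18 ± 0.04 and -0.30 ± 0.05 SE; limma adjusted p = 0.0042 and 5.3e-05). Both also fell with DAPT (log2 -0.13 ± 0.04 and -0.14 ± 0.04 SE; limma adjusted p = 0.016 and 0.0049), calls that were lost without DAPT replicate 2 (limma adjusted p up to 0.33 for Cul1 over 4 alternatives, and 0.083 for Rbx1). With shHdac3 Cul1 rose (log2 0.14 ± 0.05 SE; limma adjusted p = 0.018), a call lost in 5 of the alternatives, and Rbx1 did not pass.

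Rc3h1 and Zc3h12a encode Roquin-1 and Regnase-1, RNA-binding proteins that promote decay of the Tfrc mRNA. Rc3h1 was at 2958 and 3093 with DAPT, against 2568 and 2893 with DMSO (log2 0.15 ± 0.05 SE; limma adjusted p = 0.017). It was at 1553 and 1613 with apicidin, against 1387 and 1290 with DMSO (log2 0.24 ± 0.05 SE; limma adjusted p = 0.0012). It was at 1741 and 1895 with shHdac3, against 1652 and 1623 in scrambled libraries (log2 0.15 ± 0.05 SE; limma adjusted p = 0.016). The DAPT and shHdac3 calls were lost in 3 and 5 of the alternatives, with adjusted p-values up to 0.24 and 0.26. Zc3h12a fell with shHdac3 to 195 and 156, against 262 and 285 in scrambled libraries (log2 -0.64 ± 0.12 SE; limma adjusted p = 1.4e-05). It did not pass with DAPT (log2 -0.02 ± 0.11 SE; limma adjusted p = 0.88) or with apicidin (log2 -0.21 ± 0.11 SE; limma adjusted p = 0.15). Rc3h2, the gene of Roquin-2, a paralog of Roquin-1, rose with DAPT to 4737 and 4850, against 3604 and 4029 with DMSO (log2 0.33 ± 0.05 SE; limma adjusted p = 3.1e-06). It fell with shHdac3 to 2109 and 2267, against 2729 and 2610 in scrambled libraries (log2 -0.29 ± 0.05 SE; limma adjusted p = 3.4e-06), and did not pass with apicidin (limma adjusted p = 0.33).

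Trf, the gene of transferrin itself, was low in this line. It rose with shHdac3 to 67.9 and 58.4 normalized reads, against 14.3 and 11.8 in scrambled libraries, a log2 fold change of 2.19 ± 0.30 (SE; limma adjusted p = 3.7e-08). It was at 8.55 and 10.2 with DAPT, against 12.3 and 21.5 with DMSO, which did not pass (limma adjusted p = 0.16), and was below the minimum value with apicidin. Tfr2, the second transferrin receptor gene, was singled out after its values were seen. It was at 14.4 and 13.6 with shHdac3, against 47.0 and 52.7 in scrambled libraries (log2 -1.76 ± 0.31 SE; limma adjusted p = 6.2e-06). With apicidin it was at 17.5 and 10.0, against 23.9 and 29.9 with DMSO (log2 -0.96 ± 0.34 SE; limma adjusted p = 0.036). That call was lost in 3 of the alternatives, and without apicidin replicate 2 the adjusted p was 0.26. With DAPT it did not pass (log2 -0.08 ± 0.28 SE; limma adjusted p = 0.84). At these low values the added pseudocount of 1 understates the fold changes.

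In the uptake list 3 of 14 genes rose and 3 fell with DAPT, 1 of 13 rose and 3 fell with apicidin, and 1 of 16 rose and 1 fell with shHdac3. Over all genes tested, 20.1% rose and 23.1% fell with DAPT, 18.2% and 19.9% with apicidin, and 22.5% and 19.4% with shHdac3, and the counts of each list stand beside these shares. Mcoln1, an endosomal and lysosomal cation channel that can pass iron, rose with DAPT (log2 0.33 ± 0.08 SE; limma adjusted p = 0.0013) and did not pass with apicidin or shHdac3. Exoc6, an exocyst subunit needed for transferrin recycling in mouse red cell precursors, fell with apicidin (log2 -0.60 ± 0.07 SE; limma adjusted p = 4.5e-06) and DAPT (log2 -0.24 ± 0.06 SE; limma adjusted p = 9.7e-04), and did not pass with shHdac3. Steap3, the endosomal ferrireductase that acts before Slc11a2, fell with DAPT (log2 -0.29 ± 0.10 SE; limma adjusted p = 0.021) and did not pass with apicidin or shHdac3 (limma adjusted p = 0.067 and 0.80). Its DAPT call was lost in 3 of the alternatives. In the storage and export list, 0 of 4 tested genes rose and 2 fell with DAPT, 0 of 4 rose and 3 fell with apicidin, and 1 of 3 rose and 0 fell with shHdac3, and each count of 0 was also 0 by edgeR and at an unadjusted limma p under 0.05. Ncoa4, the receptor that delivers ferritin to lysosomes, fell with apicidin to 2862 and 2828, against 3223 and 3167 with DMSO (log2 -0.17 ± 0.04 SE; limma adjusted p = 0.0041). Its lower level with DAPT (log2 -0.11 ± 0.04 SE; limma adjusted p = 0.020) was lost in 4 of the alternatives, and with shHdac3 it did not pass (limma adjusted p = 0.48). Pcbp1, an iron chaperone for ferritin, rose with shHdac3 (log2 0.32 ± 0.05 SE; limma adjusted p = 1.4e-06). It fell with DAPT (log2 -0.14 ± 0.05 SE; limma adjusted p = 0.032) and with apicidin (log2 -0.12 ± 0.05 SE; limma adjusted p = 0.046), calls that were lost in 4 and 5 of the alternatives.

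The list for control of the regulatory proteins had 2 rises and 5 falls of 13 with DAPT, 4 rises and 5 falls of 12 with apicidin, and 3 of each of 13 with shHdac3. The shares over all genes tested were 20.1% higher and 23.1% lower with DAPT, 18.2% and 19.9% with apicidin, and 22.5% and 19.4% with shHdac3. In the mitochondrial iron-sulfur list 1 of 21 genes rose and 9 fell with DAPT, 2 rose and 6 fell with apicidin, and 4 rose and 3 fell with shHdac3. Hspa9, a mitochondrial chaperone that hands clusters on to other proteins, fell with DAPT to 14932 and 15268, against 21875 and 22406 with DMSO (log2 -0.55 ± 0.04 SE; limma adjusted p = 2.5e-11). It rose with shHdac3 to 12188 and 11658, against 9411 and 9455 in scrambled libraries (log2 0.34 ± 0.05 SE; limma adjusted p = 4.1e-08), and did not pass with apicidin. Nfs1, the cysteine desulfurase that supplies the sulfur, fell with DAPT (log2 -0.42 ± 0.05 SE; limma adjusted p = 6.4e-07) and did not pass with apicidin. Its fall with shHdac3 (log2 -0.24 ± 0.06 SE; limma adjusted p = 0.0018) did not pass in the authors' deposited table, with an adjusted p of 0.072. In the cytosolic list 0 of 10 genes rose (also 0 by edgeR and at an unadjusted limma p under 0.05) and 6 fell with DAPT, 2 rose and 3 fell with apicidin, and 4 rose and 1 fell with shHdac3. Ciapin1, an electron carrier of that pathway, fell with DAPT (log2 -0.23 ± 0.06 SE; limma adjusted p = 0.0015, and 0.0501 without DAPT replicate 2) and with apicidin (log2 -0.23 ± 0.06 SE; limma adjusted p = 0.0045, and 0.086 in the authors' deposited table). It rose with shHdac3 (log2 0.18 ± 0.06 SE; limma adjusted p = 0.015), a call lost in 4 of the alternatives. Ndor1, its reductase, rose with shHdac3 (log2 0.32 ± 0.07 SE; limma adjusted p = 9.95e-05) and apicidin (log2 0.22 ± 0.06 SE; limma adjusted p = 0.0075, and up to 0.12 in 2 alternatives), and did not pass with DAPT (limma adjusted p = 0.34).

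The heme list had 1 rise and 5 falls of 16 with DAPT, 1 and 5 of 16 with apicidin, and 2 and 4 of 16 with shHdac3, beside the same shares over all genes. Blvrb, a biliverdin reductase of heme breakdown, fell with apicidin to 442 and 472, against 657 and 701 with DMSO (log2 -0.57 ± 0.07 SE; limma adjusted p = 6.9e-06). It fell with shHdac3 to 365 and 342, against 616 and 628 in scrambled libraries (log2 -0.81 ± 0.08 SE; limma adjusted p = 6.2e-12), and did not pass with DAPT (limma adjusted p = 0.076). Hmox1, the heme oxygenase that frees iron from heme, fell with shHdac3 to 278 and 264, against 394 and 388 in scrambled libraries (log2 -0.53 ± 0.09 SE; limma adjusted p = 7.5e-06). Its lower level with DAPT (log2 -0.19 ± 0.06 SE; limma adjusted p = 0.010) was lost in 2 of the alternatives, and with apicidin its groups overlapped (limma adjusted p = 0.31). Cpox and Alad, both enzymes of heme synthesis, fell with DAPT (log2 -0.39 ± 0.06 and -0.29 ± 0.06 SE; limma adjusted p = 3.5e-05 and 4.2e-04), and neither passed with apicidin or shHdac3. Bach1, a heme-sensing repressor, rose with DAPT (log2 0.33 ± 0.04 SE; limma adjusted p = 2.2e-07), fell with shHdac3 (log2 -0.17 ± 0.05 SE; limma adjusted p = 0.0021, and 0.075 without scrambled replicate 2) and did not pass with apicidin (limma adjusted p = 0.67).

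**Figure D4:**
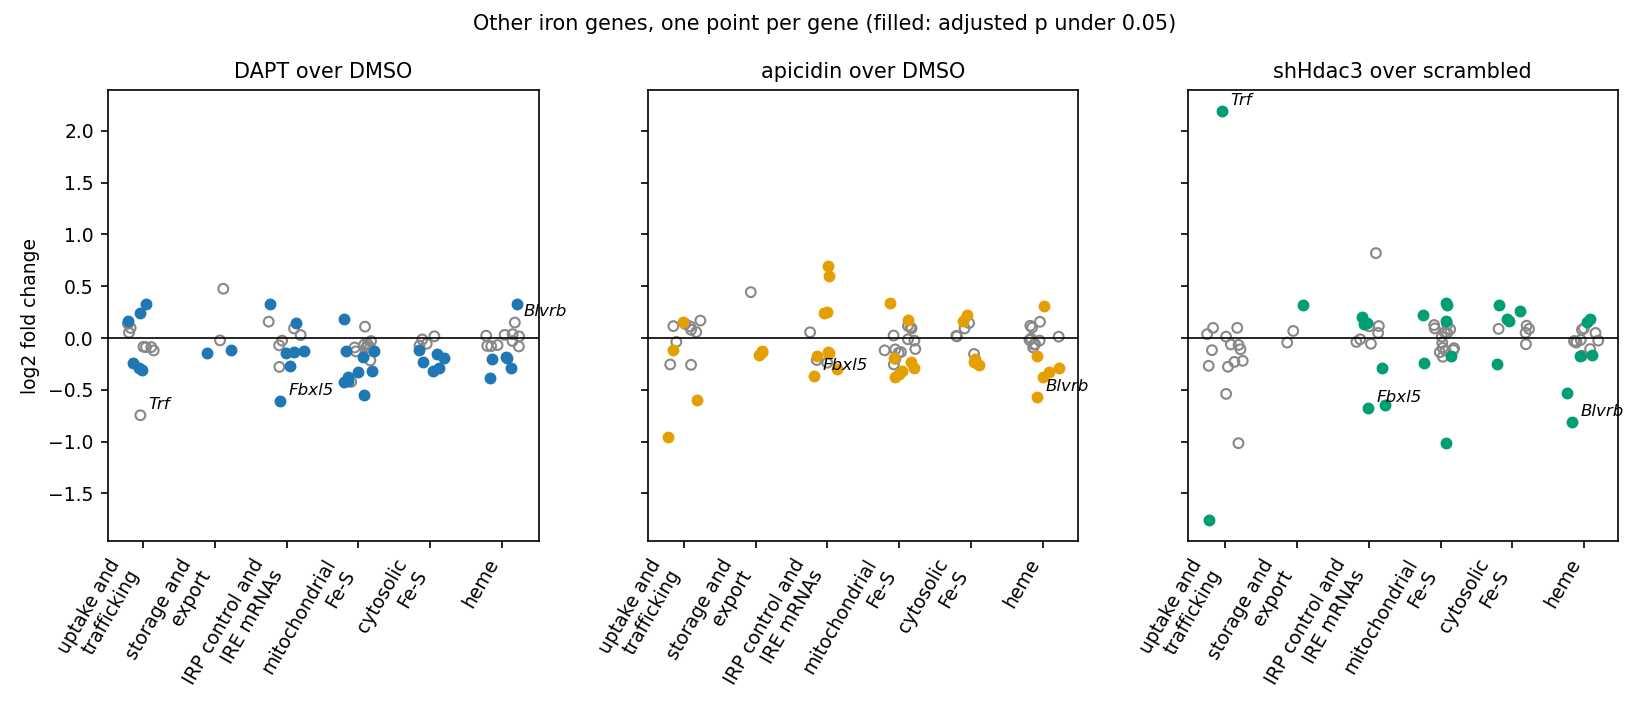
Log2 fold change of each tested gene of the 6 other iron lists (1 point per gene, by list) in the 3 experiments, filled where the limma adjusted p was under 0.05. Filled points lie mostly below 0 with DAPT (30 of 37) and apicidin (25 of 35), where 46.6% and 47.7% of the calls over all genes lay above 0 (56.5% and 49.2% with upper-quartile factors), and Fbxl5 is filled and below 0 in all 3 panels.

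The genes whose pattern was most like that of Tfrc were found among 10460 genes with a mean of 50 or more in each experiment. Likeness was the root mean square difference from Tfrc, over the 12 libraries, of log2(value + 1) minus the mean of the own controls, and its median over all genes was 0.57. Among the closest 5 were Dusp4 (0.11), Hemgn (0.13), Atp13a2 (0.13) and Ankrd50 (0.15). Since they were chosen for this pattern, their changes are given with no test. Dusp4, a phosphatase that acts on MAP kinases, had log2 changes of 0.48 with DAPT, 0.76 with apicidin and 0.82 with shHdac3. Hemgn, a gene known from blood progenitors, had 0.51, 0.59 and 0.71 in the same order. Atp13a2, a lysosomal polyamine exporter, had 0.80, 0.86 and 0.75, and Ankrd50, an ankyrin repeat protein, had 0.59, 0.66 and 0.57. None of these 4 belongs to the iron lists.

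**Figure D5:**
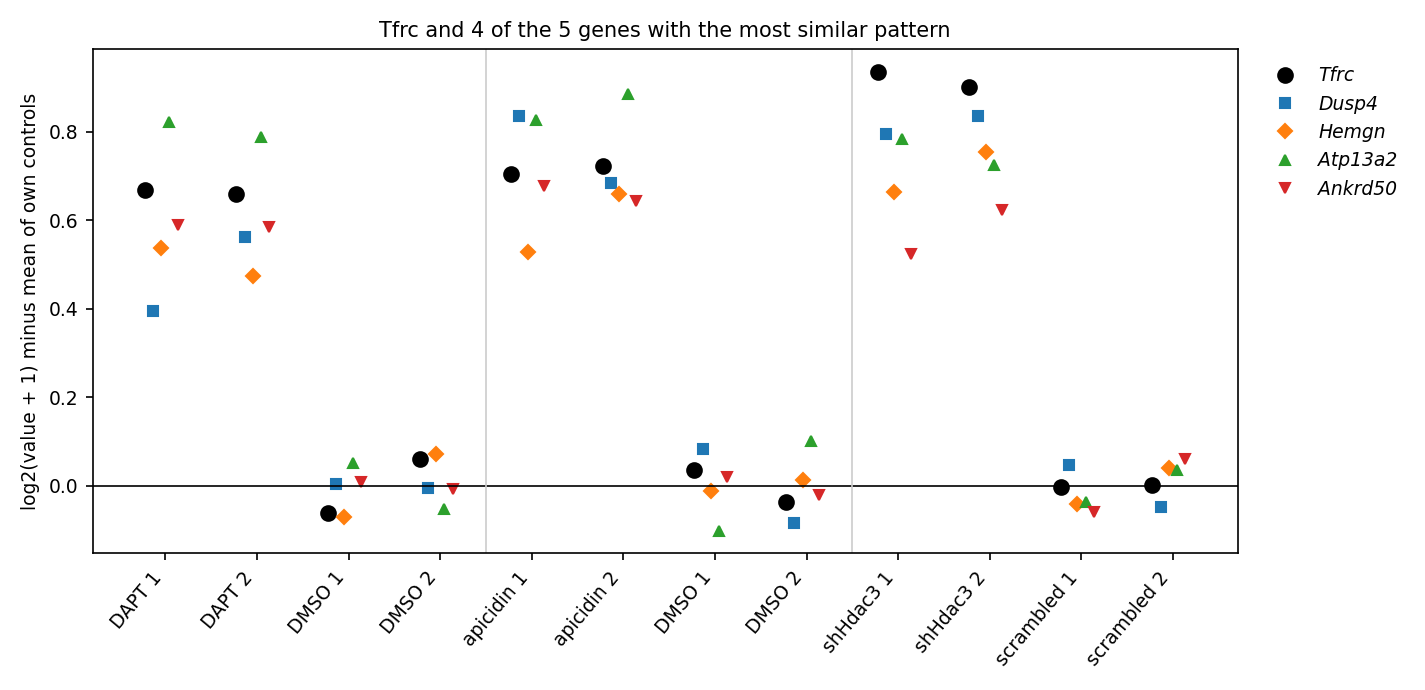
Log2(value + 1) minus the mean of the own control libraries (vertical axis) for Tfrc and 4 of the 5 genes with the smallest root mean square difference from it, in each of the 12 libraries. The control libraries of each experiment centre on 0 because their mean was subtracted. All the genes shown lie above 0 in the 6 treated libraries, which follows from their choice for likeness to Tfrc. The 4 differ from Tfrc by a root mean square of 0.11 to 0.15.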

How the data were processed

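Gene expression was measured by stranded, ribosomal RNA-depleted RNA-seq of 12 Beko libraries, grouped by the submitters' titles. Per the submitters' processing notes, the build was mm9 and the tools were TopHat, Bowtie2, FastQC and DESeq2, with no version named. Which program counted reads, and whether by strand, is not given in the sources used here. All 3 tables deposited by the authors, 1 per experiment, list per the file headers a normalized signal per library, log2 fold changes with standard errors, a test score, p-values and adjusted p-values. The deposited signal is whole reads divided by a size factor: 100% of values were whole multiples of 1 read within a relative tolerance of 1e-06. All per-library columns matched a sample.

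Each experiment was tested alone with limma 3.58.1 under R 4.3.3 on log2(value + 1). The spread of each gene was drawn towards that of genes of similar level, and the SEs given use this spread. Genes entered at 10 or more in at least 2 of its 4 libraries, and tests were two-sided with Benjamini-Hochberg adjustment at 0.05. The pseudocount understates changes of low genes. Differences between experiments used 1 fit over 12 libraries. edgeR 4.0.16 on the recovered reads was an alternative. It called 2669 genes higher and 2901 lower with DAPT, 2279 and 2486 with apicidin, and 2839 and 2475 with shHdac3. Scripts were tested on simulated data. Transcripts are from GENCODE M21. The members and gene lists were chosen with earlier results of these data known. Named genes are the 7 members, Hdac3, up to 3 called genes per list with the largest change and a mean of 50 or more, 7 set genes of iron control, and the 5 most Tfrc-like; some are not reported here.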

Additional observations from a re-analysis of the deposited data

Results flagged for a closer look

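The responses of Ftl1 and Ireb2 differed between experiments by a limma test of the difference itself. Of all genes, 34.8% passed this test for DAPT minus apicidin, 43.8% for DAPT minus shHdac3 and 33.4% for apicidin minus shHdac3. The log2 change of Ftl1 was 0.68 higher for DAPT than for apicidin (adjusted p = 1.7e-09), 0.39 higher for DAPT than for shHdac3 (adjusted p = 3.6e-06), and different by -0.29 for apicidin minus shHdac3 (adjusted p = 2.6e-04). Both DAPT libraries lay above and both apicidin and both shHdac3 libraries lay below their own controls. The Ftl1 change with shHdac3 itself missed the threshold (limma adjusted p = 0.0501). The log2 change of Ireb2 differed by -0.35 for DAPT minus apicidin (adjusted p = 0.0047, and 0.051 without apicidin replicate 2) and was 0.41 higher for apicidin than for shHdac3 (adjusted p = 0.0017). Both treated Ireb2 libraries lay above both controls in each of the 3 experiments. The Ireb2 change itself passed only with apicidin (limma adjusted p = 2.8e-04, 0.15 with DAPT and 0.71 with shHdac3). Over all genes tested, both treated libraries lay on 1 side of both controls for 69.9% with DAPT, 69% with apicidin and 69.2% with shHdac3.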

How the results depend on the processing

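Alternatives were pseudocounts of 0.5 and 5, no filter or a filter at 50, TMM and upper-quartile factors, edgeR, the authors' deposited p-values, a replicate block, and each library left out. The 63 called changes of named other iron genes had 816 alternative values, of which 741 kept their call, 75 lost it and 0 changed sign. Named changes that did not pass were not followed, so gained calls are not counted. The authors' table called 1646 genes higher and 2168 lower with DAPT, 1136 higher and 1329 lower with apicidin, and 1694 higher and 1267 lower with shHdac3. For other iron genes it called 4 higher and 19 lower, 6 and 13, and 6 and 7. It gave the same Aco1 changes without a call (-0.12 with DAPT, -0.16 with apicidin). With upper-quartile factors 11 other iron genes were higher with DAPT and 7 with shHdac3. The Tfrc change with shHdac3 was 0.88, Aco1 with DAPT -0.078 (not called), Ireb2 with DAPT 0.13 (called), Ftl1 with shHdac3 -0.15 (called) and Ireb2 with shHdac3 -0.0019, a reversed sign. Of all genes called with shHdac3, 53.8% were higher, against 43.5% with these factors. Ftl1 with shHdac3 was also called at -0.11 with a pseudocount of 5, a filter at 50, TMM and edgeR. With TMM the Fth1 difference of apicidin minus shHdac3 was 0.010, a reversed sign.

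With each library left out, other iron genes with apicidin numbered 6 to 12 higher and 16 to 21 lower. Log2 changes ranged from -0.16 to 0.0099 for Fth1, 0.13 to 0.18 for Slc11a2 and -0.12 to -0.11 for Aco1 with DAPT, from -0.19 to -0.12 for Aco1 with apicidin, and from -0.15 to -0.075 for Ftl1 with shHdac3. Differences ranged for Fth1 from -0.23 to -0.056 (DAPT minus apicidin), -0.24 to -0.066 (DAPT minus shHdac3) and -0.060 to 0.041 (apicidin minus shHdac3). For DAPT minus apicidin they ranged from -0.46 to -0.25 for Ireb2 and -0.0067 to 0.069 for Aco1, and for apicidin minus shHdac3 from -0.17 to -0.10 for Slc11a2. Where a sign or call changed, the cause was not tested, beyond the smaller number of libraries.

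Libraries with the same replicate number hardly deviated together (r = 0.02, 0.04 and 0.01 across genes). Such an r cannot exclude a weak shared effect, so whether the numbers pair the libraries is not settled. The replicate block called 2826 genes higher and 3152 lower with DAPT, 2294 and 2517 with apicidin, and 2861 and 2466 with shHdac3, and it changed no call of the 5 tested genes. Precision is limited by the 2 libraries a group, and for Slc40a1, with no read, by the depth of 21766984 to 42815304 reads.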
